A study of Danio rerio with 16 samples.

Results

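Levels of 6 DNA repair genes, ddb2, xpc, neil1, ercc6, wdr76 and zufsp, were followed in whole zebrafish embryos after an injection of insulin or of buffer. They were taken by symbol from the 31452 genes of the count tables, each symbol matched 1 gene, and all 6 passed the filter on low counts. They were chosen by their higher counts in insulin at 0.5 hours post injection (hpi), or as known light-induced repair genes, so the early values below are a description without a test. Embryos of the ABTL genetic background received 1 nl of human recombinant insulin or, as controls, of PBS into the caudal aorta at 4 days post fertilization. Each treatment was sampled at 0.5 and at 4 hpi, which makes 4 groups of 4 libraries, and every library held the RNA of 10 pooled embryos. The sources used here give neither the insulin dose nor the light conditions.

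Nucleotide excision repair removes bulky lesions, above all those that ultraviolet light makes in DNA. A pair of sensors starts it: XPC finds distorted helix anywhere in the genome, and DDB2, a substrate receptor of the CUL4-DDB1 ubiquitin ligase, binds ultraviolet photoproducts and helps XPC to find them. ERCC6 (Cockayne syndrome protein B) acts instead at RNA polymerase II stalled on a lesion. NEIL1 is a DNA glycosylase that starts base excision repair of oxidised bases. WDR76 is a WD40-repeat protein that binds the CUL4-DDB1 ligase in human cells, and ZUFSP is, in human cells, a deubiquitinase that cuts K63-linked ubiquitin chains and acts in the response to DNA damage. Zebrafish tissues respond to light directly, and light raises cryptochrome, photolyase and several repair genes in them.

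Library totals ran from 6535173 to 9628705 reads. Levels are CPM (counts scaled to library size with TMM factors), and they are compared within a gene and not between genes. Both wdr90 and si:dkey-15h8.1 were below 10 CPM in 4 libraries, which are called those that stand apart. Of the early libraries these were PBS replicate 1 with insulin replicates 1 and 2, and of the late ones insulin replicate 1. The early PBS replicates 2 and 3 differed in only 89 of 20557 genes by a chi-square test of their counts. Other pairs of replicates differed in 747 to 9561 genes. By that test 0 of the 6 repair genes had an unadjusted p under 0.05 in this pair. The same was true of some other pairs, such as early PBS replicates 2 and 4, which differed in 3253 genes. Early PBS replicates 2 and 3 both have lane 2 in their headers, which no other header names. The labels do not say whether they are 2 libraries of 1 RNA. They are counted as 2 libraries in means, SDs and tests, except where they are summed. All 22 markers of tissues of the whole embryo, from liver and muscle to blood and nervous system, had reads in all 16 libraries. The labels do not say whether replicates came from separate clutches or days, so the p-values measure the spread between these pools only.

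At 0.5 hpi the damage sensors were higher in insulin, and unevenly so among the insulin libraries. ddb2 (ENSDARG00000041140, chromosome 18) was at 15.5, 9.54, 9.72 and 12.1 CPM in PBS replicates 1 to 4 and at 16.5, 20.6, 31.1 and 32.5 CPM in insulin replicates 1 to 4. xpc (ENSDARG00000039754, chromosome 8) was at 15.2, 15.3, 14.6 and 14.8 CPM in PBS and at 17.3, 18.2, 45.0 and 45.7 CPM in insulin. For both genes every insulin library lay above every PBS library. Insulin replicates 3 and 4 were far above the controls, while replicates 1 and 2, which stand apart, were closer to them. PBS replicate 1, which also stands apart, was the highest control for ddb2 and lay among the other controls for xpc. The log2 change was 1.096 for ddb2 (SE 0.22) and 1.07 for xpc (SE 0.26). These levels come from pools of whole embryos, in which fewer cells of a type and less RNA per cell cannot be told apart.

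The gene for transcription-coupled repair showed a less uneven early difference. ercc6 (ENSDARG00000075612, chromosome 13) was at 20.4, 20.7, 23.8 and 20.7 CPM in PBS and at 30.1, 36.03, 43.4 and 51.1 CPM in insulin, a log2 change of 0.91 (SE 0.14). The insulin replicates that stand apart were above all 4 PBS libraries here too. The base excision gene neil1 (ENSDARG00000018061, chromosome 25) was at 10.2, 6.31, 7.49 and 5.28 CPM in PBS and at 8.003, 11.005, 13.2 and 13.6 CPM in insulin (0.64, SE 0.20). It was the only 1 of the 6 whose groups overlapped at 0.5 hpi.

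Of the ubiquitin-related genes, wdr76 had the largest early difference of the 6 genes and zufsp the least spread among its insulin libraries. wdr76 (ENSDARG00000053554, chromosome 7) was at 7.32, 4.57, 6.30 and 5.40 CPM in PBS and at 11.3, 13.1, 22.9 and 23.3 CPM in insulin, 1.57 on the log2 scale (SE 0.24). zufsp (ENSDARG00000059983, chromosome 16) was at 6.53, 4.57, 4.20 and 5.40 CPM in PBS and at 10.1, 10.7, 10.3 and 8.78 CPM in insulin (0.94, SE 0.17). In zufsp the 4 insulin libraries lay close together, with those that stand apart among the others. Of all 21650 genes tested, 0.166% were higher in insulin at an adjusted p under 0.05, and in 3.2% all insulin libraries lay above all PBS libraries; 4 and 5 of the 6 repair genes did so, in the comparison that the choice of genes used. Of the 6, ddb2 lay closest below an adjusted p of 0.05 (0.0394) and xpc closest above it (0.0840), both from edgeR. These values come from the comparison used in the choice, so they describe the genes and test nothing.

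**Figure D1:**
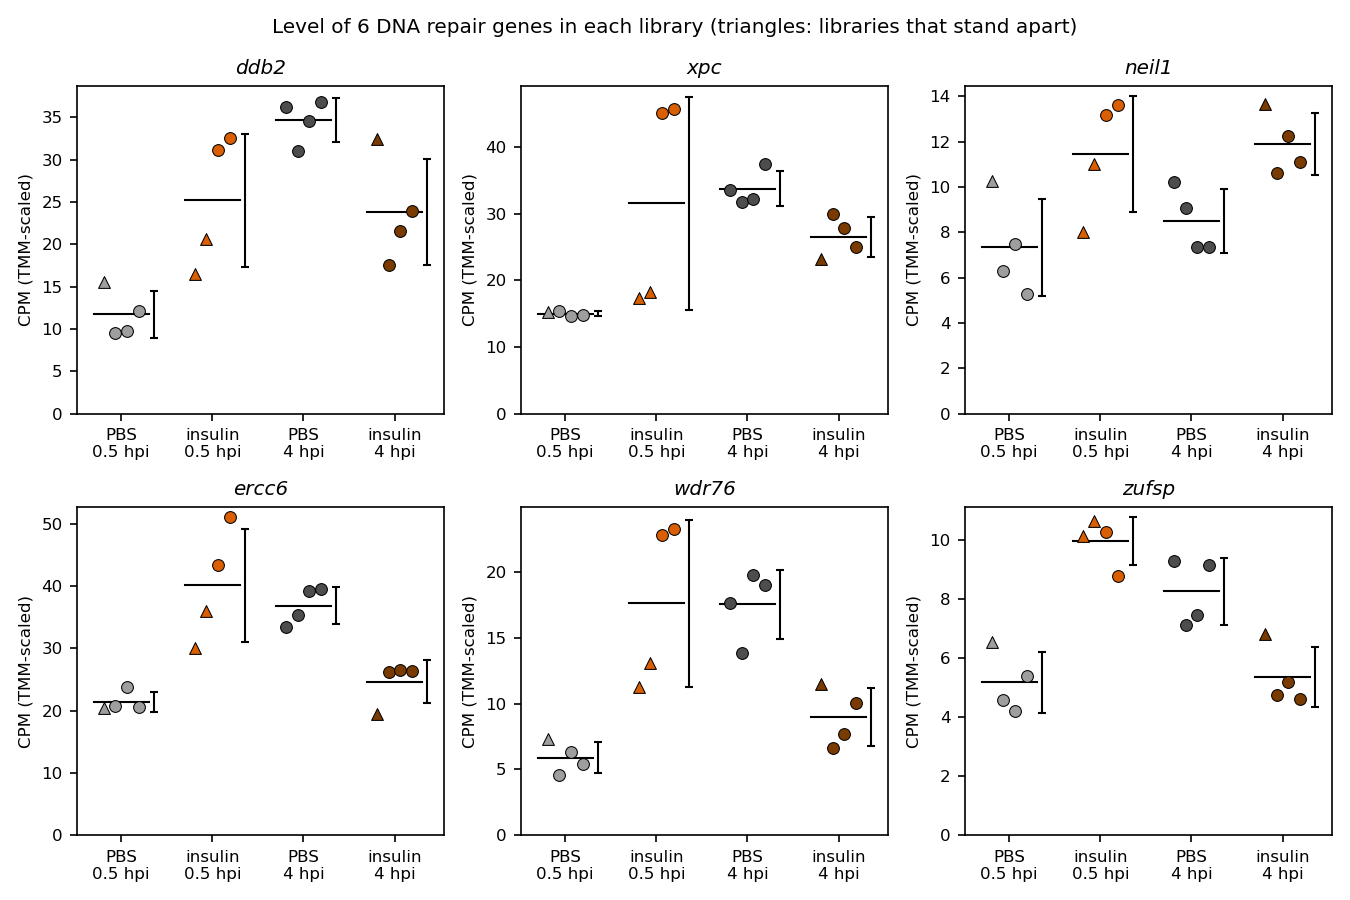
Level (CPM, linear axis from 0) of each repair gene in the 16 libraries, with the group mean (line) and SD (bar, n = 4) and triangles for the 4 libraries that stand apart. xpc shows insulin replicates 3 and 4 at 0.5 hpi at 45.0 and 45.7 CPM, far from replicates 1 and 2 at 17.3 and 18.2 CPM.

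The early difference of ddb2, xpc and neil1 came mainly from the libraries that do not stand apart. That of wdr76 was also much larger among those libraries. Among those, 2 insulin against 3 PBS, the log2 ratio of mean CPM was 1.61 for ddb2, 1.61 for xpc and 1.07 for neil1. Among those that stand apart, 2 insulin against 1 PBS, it was 0.26, 0.22 and -0.11. The 2 ratios were 1.12 and 0.70 for ercc6, 2.09 and 0.73 for wdr76, and 1.01 and 0.67 for zufsp. All of the 6 genes but neil1 were higher within both sets. These are ratios of 1 to 3 libraries a side with no test, and what sets the libraries apart was not tested. With the nearly identical PBS libraries summed as 1, the changes of the 6 genes ran from 0.62 for neil1 to 1.55 for wdr76. Among the libraries whose header names no lane, 3 insulin and 2 PBS, they ran from 0.70 for neil1 to 1.63 for wdr76.

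At 4 hpi, the comparison that the choice of genes did not use, 3 of the 6 genes were lower in insulin and 0 were higher (edgeR, adjusted p under 0.05). In that direction 14.6% of all genes tested passed, and 14% passed in the other. wdr76 had the largest change of the 3, and ercc6 and zufsp had smaller ones. ddb2 and xpc also had lower means in insulin, and neil1 a higher mean, without passing the test. The median change of the 6 was -0.56, against 0.01 over all genes tested.

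wdr76 was at 17.7, 13.8, 19.8 and 19.0 CPM in PBS replicates 1 to 4 at 4 hpi and at 11.5, 6.60, 7.71 and 10.0 CPM in insulin (log2 change -0.98, SE 0.23, adjusted p = 0.00435, edgeR). The groups did not overlap. Its mean was 8.96 ± 2.22 CPM in insulin and 17.6 ± 2.63 CPM in PBS (SD, n = 4). ercc6 was at 33.5, 35.3, 39.3 and 39.5 CPM in PBS and at 19.5, 26.3, 26.5 and 26.4 CPM in insulin (-0.58, SE 0.14, adjusted p = 0.00487, edgeR). The insulin replicate that stands apart, replicate 1, was the lowest. zufsp was at 9.29, 7.12, 7.47 and 9.15 CPM in PBS and at 6.83, 4.76, 5.19 and 4.63 CPM in insulin (-0.62, SE 0.18, adjusted p = 0.0129, edgeR). All 4 insulin libraries lay below all 4 PBS libraries in each of the 3 genes, as they did in 17.2% of all genes tested. zufsp has the fewest reads of the 6, 30 to 51 per insulin library, and the counting error alone of its lowest library is 18.3%.

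The damage sensors did not pass at 4 hpi. ddb2 was at 36.2, 31.0, 34.6 and 36.8 CPM in PBS and at 32.4, 17.5, 21.5 and 23.9 CPM in insulin (-0.54, SE 0.21, adjusted p = 0.0577, edgeR). The overlap came from insulin replicate 1, which stands apart. Without it the change was -0.73 (adjusted p = 0.0146, edgeR), and that of ercc6 -0.48 (adjusted p = 0.0178, edgeR). xpc was at 33.6, 31.7, 32.2 and 37.4 CPM in PBS and at 23.2, 30.0, 27.8 and 25.0 CPM in insulin. Its groups did not overlap, but the change of -0.35 (SE 0.25, adjusted p = 0.313, edgeR) did not pass in a model whose spread for xpc includes the 0.5 hpi libraries.

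neil1 was the exception in direction. It was at 10.2, 9.06, 7.36 and 7.36 CPM in PBS and at 13.7, 10.6, 12.2 and 11.1 CPM in insulin at 4 hpi, a log2 change of 0.49 that did not pass (SE 0.20, adjusted p = 0.0708, edgeR). All 4 insulin libraries lay above all 4 PBS libraries, as in 16.3% of all genes tested. The nearest libraries were at 10.6 and 10.2 CPM.

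**Figure D2:**
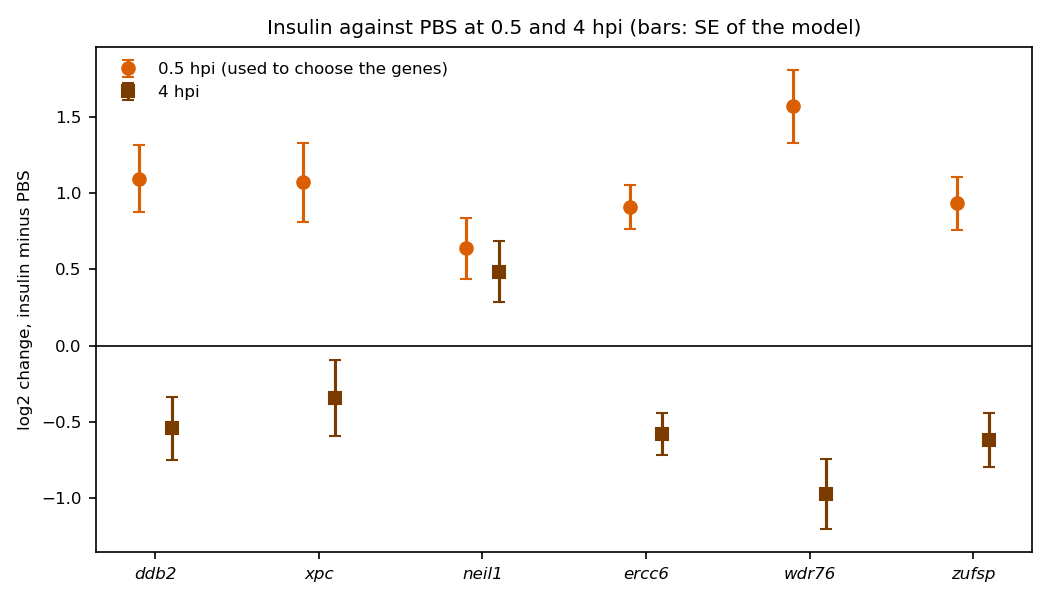
Log2 change of each repair gene in insulin against PBS at 0.5 hpi (circles, the values that chose the genes) and at 4 hpi (squares), with the SE of the model. At 4 hpi wdr76, zufsp and ercc6 lie at -0.98, -0.62 and -0.58, and neil1 alone lies above 0, at 0.49.

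How many of the 6 passed at 4 hpi depended on which libraries were in the model, which changed both the estimates and the spread. All 6 passed when the model was fitted to the other 12 libraries, with neil1 higher and the other 5 lower, and 35.2% of all genes passed there against 28.6% in the 16 libraries. There ddb2 was at -0.73 (adjusted p = 2.46e-05), xpc at -0.28 (adjusted p = 0.0282) and neil1 at 0.42 (adjusted p = 0.0371), all from edgeR with 3 insulin and 4 PBS libraries. All 6 also passed in a fit of the 8 libraries at 4 hpi alone, where 33.6% of all genes passed, and 5 without PBS replicate 1 at 0.5 hpi, where 33.1% did. With any single library left out, the adjusted p ran from 0.00217 to 0.0181 for wdr76, 0.00245 to 0.0178 for ercc6, 0.00538 to 0.0409 for zufsp, 0.0146 to 0.159 for ddb2, 0.0361 to 0.168 for neil1 and 0.199 to 0.505 for xpc (edgeR). Within sequencing lane 5, with 2 insulin and 3 PBS libraries, wdr76 (-0.87, adjusted p = 0.0393), ercc6 (-0.73, adjusted p = 0.0226) and neil1 (0.70, adjusted p = 0.0400) passed, and zufsp did not (-0.40, adjusted p = 0.238, edgeR). Of the 2 insulin libraries in that lane 1 was replicate 1, which stands apart. It held the lowest ercc6 (19.5 CPM) and the highest neil1 (13.7 CPM) and zufsp (6.83 CPM) of insulin at 4 hpi. Of all genes tested in that lane 13.7% passed. Only 1 library of each group at 4 hpi has a header without a lane, and between them 0 of the 6 passed, with 1 gene passing and 1885 at an unadjusted p under 0.05 over all genes (edgeR).

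The changes over time are a description only, because both time courses include the 0.5 hpi libraries on which the genes were chosen. From 0.5 to 4 hpi in PBS the log2 changes were 1.55 for ddb2, 1.17 for xpc, 0.21 for neil1, 0.79 for ercc6, 1.56 for wdr76 and 0.66 for zufsp. In insulin they were -0.08, -0.25, 0.05, -0.70, -0.98 and -0.90 in the same order. The values near 0 for ddb2 and xpc average over unlike libraries. Among insulin libraries that do not stand apart, ddb2 was at 31.1 and 32.5 CPM at 0.5 hpi and 17.5, 21.5 and 23.9 CPM at 4 hpi. xpc was at 45.0 and 45.7 CPM and later 30.0, 27.8 and 25.0 CPM. Those that stand apart were at 16.5 and 20.6 CPM and later 32.4 CPM for ddb2, and 17.3 and 18.2 CPM and later 23.2 CPM for xpc. Some early insulin libraries were already at or beyond the later control levels. At 0.5 hpi insulin replicates 3 and 4 held ddb2 within the range of PBS at 4 hpi, 31.0 to 36.8 CPM, and xpc and wdr76 above it. Replicates 1 and 2 lay below the PBS range in each of those genes. For neil1 and zufsp 3 early insulin libraries lay above it and 1 inside, and for ercc6 2 above, 1 inside and 1 below.

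Ordered by mean level, the groups fell into several patterns. For ddb2 and xpc PBS at 4 hpi was highest, followed by insulin at 0.5 hpi and insulin at 4 hpi, and the ranges of neighbouring groups overlapped except that PBS at 0.5 hpi lay below all. For ercc6, wdr76 and zufsp insulin at 0.5 hpi was highest and overlapped PBS at 4 hpi. Insulin at 4 hpi lay below PBS at 4 hpi with no overlap and overlapped PBS at 0.5 hpi, which was lowest for ercc6 and wdr76, and for zufsp by only 5.18 against 5.35 CPM. For neil1 all neighbouring groups overlapped, with means of 7.33 CPM in PBS at 0.5 hpi and 11.9 CPM in insulin at 4 hpi as the extremes.

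The 6 genes varied together to different degrees. Over the 16 libraries the Pearson correlation of log2 CPM between pairs of them ran from 0.28 for neil1 and zufsp to 0.89 for ddb2 and wdr76, with a median of 0.67 over the 15 pairs. After the group means were removed, the values ran from -0.56 for ercc6 and zufsp to 0.91 for ddb2 and wdr76, with a median of 0.44. The 16 libraries include the early ones on which the 6 were chosen. These are descriptions over libraries that share treatment, time and the split described above.

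The genes most like the mean of the 6 were ubtfl (r = 0.94), ube2q2 (0.93), dhrs12 (0.92), cry5 (0.91), tnpo2 (0.895), gabpa (0.88), si:ch211-197h24.6 (0.88) and zgc:65997 (0.88), by Pearson's r of log2 CPM over 16 libraries among 19472 genes. For single genes the closest were dhrs12 and zgc:65997 for ddb2 (0.95 and 0.94), si:ch1073-174d20.2 and march6 for xpc (0.96 and 0.93) and mki67ip and ttc4 for neil1 (0.90 for each). They were g3bp2 and pou6f1 for ercc6 (0.90 for each), ubtfl and tnpo2 for wdr76 (0.95 and 0.94), and ing3 and ugt5f1 for zufsp (0.93 and 0.90). The likeness includes the early libraries on which the 6 were chosen.

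Of 10 known light-responsive genes 3 were higher and 0 lower in insulin at 0.5 hpi, where 0.166% and 0.222% of all genes passed (edgeR). The list was made with earlier results of these data known. They were cry-dash and cry5, of the cryptochrome and photolyase family, and the clock-output gene tefa. lonrf1 (0.87, adjusted p = 0.0518) and per2 (0.78, adjusted p = 0.0618), a clock repressor that light raises, did not pass, nor did the photolyase gene cpdp (0.28), cry1a (0.18), tefb (0.05), bhlhe41 (0.06) or bhlhe40 (-0.60). lonrf1 was at 25.9, 31.0, 31.4 and 43.3 CPM in PBS and at 39.1, 46.0, 80.7 and 74.2 CPM in insulin. per2 was at 111, 142, 140 and 173 CPM in PBS and at 170, 181, 320 and 299 CPM in insulin. Insulin replicates 3 and 4 were the high ones in lonrf1, per2, cry-dash and cry5, as for xpc, and replicates 1 and 2 were nearer the controls.

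At 4 hpi 8 of the 10 light-responsive genes were lower in insulin and 0 higher, against 14.6% lower and 14% higher over all genes. per2 was at 325 ± 30.2 CPM in PBS and 64.5 ± 5.07 CPM in insulin (SD, n = 4, log2 change -2.33, adjusted p = 1.27e-07, edgeR). cry-dash was at 76.8 ± 3.19 CPM in PBS and 27.9 ± 1.67 CPM in insulin (-1.46, adjusted p = 9.52e-05, edgeR). cry1a (-1.27), lonrf1 (-1.15), bhlhe41 (-0.95), bhlhe40 (-0.93), tefb (-0.91) and tefa (-0.87) were also lower, with adjusted p from 9.58e-07 to 0.00110 (edgeR). cry5 (-0.37, adjusted p = 0.318) and cpdp (0.17, adjusted p = 0.366) did not pass. The summed level of the 10 genes was 977 to 1337 CPM in PBS and 1175 to 1451 CPM in insulin at 0.5 hpi, and 1563 to 1699 CPM in PBS and 710 to 799 CPM in insulin at 4 hpi, and none of the 10 was at 0 in any library. Their part in the result for the repair genes was not tested.

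**Figure D3:**
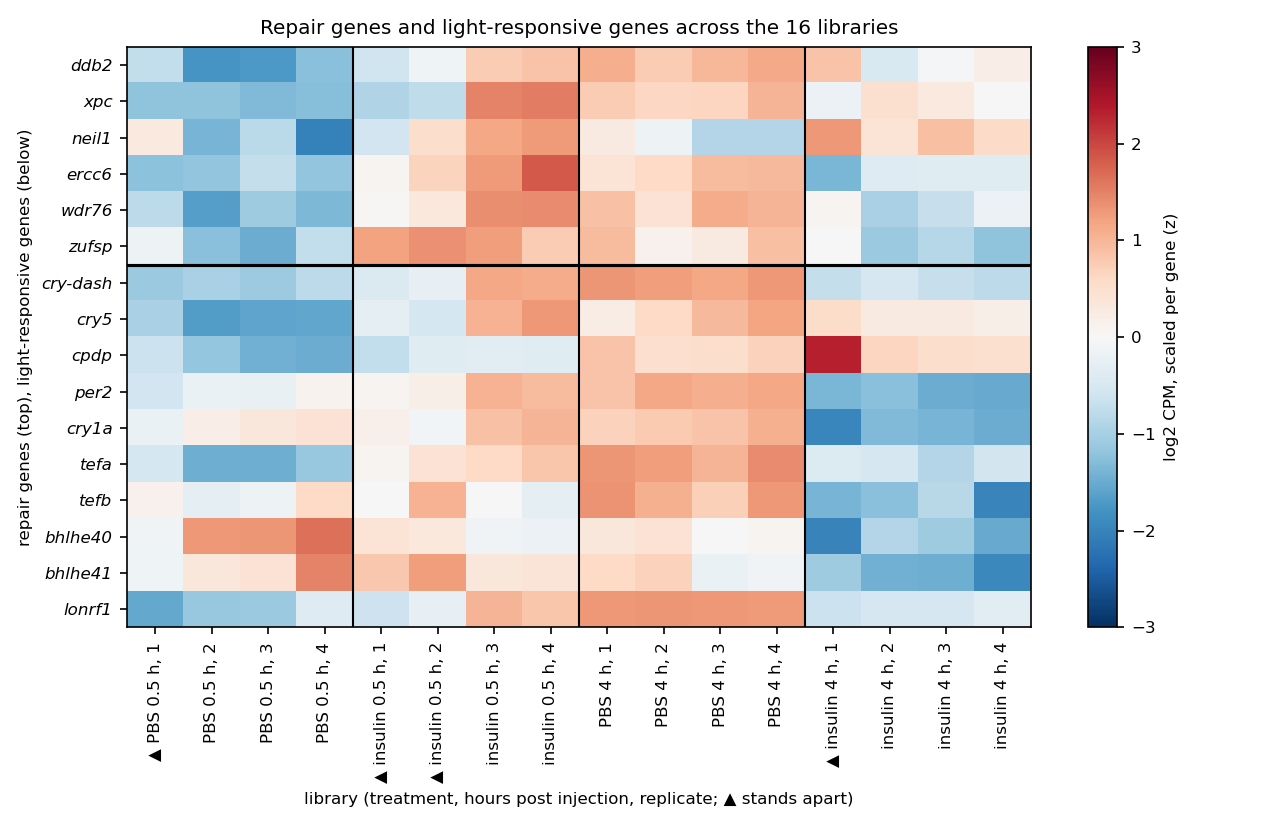
Log2 CPM of the 6 repair genes (top) and 10 light-responsive genes (below), scaled per gene to mean 0 and SD 1 over the 16 libraries. Insulin replicates 3 and 4 at 0.5 hpi share the warm colours of PBS at 4 hpi for ddb2, xpc, ercc6, wdr76 and zufsp. They do so too for cry-dash, cry5, per2, cry1a, tefa and lonrf1, and not for neil1, cpdp, tefb, bhlhe40 or bhlhe41.

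Other repair genes came from 9 lists that leave out the 6. The lists were made by pathway, with earlier results of these data known. The 6 were chosen by the early difference or as light-induced repair genes, so the lists and the 6 are not compared at 0.5 hpi. Of 136 genes tested 1 was higher and 0 lower in insulin at 0.5 hpi, where 0.388% of all genes passed. The median change of the 136 was 0.09 against 0.02 over all genes. The gene that passed was rev1, a translesion polymerase that bypasses lesions (mean of 30.2 CPM in PBS and 41.7 CPM in insulin, 0.47, adjusted p = 0.0308, edgeR). It did not pass at 4 hpi (-0.16). Among lists close to the 6, the 10 genes of the CUL4-DDB1 ligase and damage recognition had changes of -0.12 to 0.41, and the 5 of transcription-coupled repair had a median of 0.05. The 18 core nucleotide excision repair genes had a median of 0.13 and reached 0.58, and the 20 base excision repair genes a median of 0.24, reaching 0.72. Fits without single libraries called 0 to 12 of the list genes, with the 12 reached without PBS replicate 1, where 4.51% of all genes passed. A fit of the libraries that do not stand apart called 24, where 12.9% of all genes passed.

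At 4 hpi 30 of the 136 genes were higher in insulin and 16 lower, 22.1% and 11.8%, against 14% and 14.6% of all genes. The median of the 136 was 0.11. These are differences from PBS at 4 hpi and not changes over time. In the excision repair pathways the genes that passed were higher in insulin, unlike ercc6. Of 20 base excision repair genes 8 were higher in insulin and 0 lower (median 0.19). The 8 included apex1, for the main abasic-site endonuclease (48.1 CPM in PBS and 91.4 CPM in insulin, 0.93, SE 0.11, adjusted p = 1.37e-05, edgeR). Others were the ligase gene lig3 (0.75), the glycosylase gene tdg.1 (0.74) and aptx (0.88), with adjusted p up to 0.00174 (edgeR). Of 18 core nucleotide excision repair genes 4 were higher in insulin and 0 lower (median 0.27). They were cdk7 (0.91) and mnat1 (0.99), of the kinase module of the factor TFIIH, ercc3 (0.27), which encodes a TFIIH helicase, and rpa2 (0.48), with adjusted p from 7.64e-05 to 0.0336 (edgeR).

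Of the 10 partners in damage recognition 4 were higher in insulin and 0 lower at 4 hpi, against 14% and 14.6% of all genes. They were the ligase genes rbx1 (0.50) and cul4b (0.24), rad23b (0.35), whose product binds XPC, and usp7 (0.27), with adjusted p from 0.0225 to 0.0422 (edgeR). The 5 transcription-coupled repair genes had changes of 0.05 to 0.39 that did not pass. In translesion synthesis and ubiquitin signalling at damage 6 of 17 genes were higher in insulin and 1 lower (median 0.28). babam1 (0.90), poli (0.88), usp1 (0.45) and rnf8 (0.40) were among the 6, with adjusted p from 4.75e-05 to 0.0117 (edgeR). The 1 that was lower, named after its value was seen, was the polymerase gene polk (-0.54, adjusted p = 0.0242, edgeR). Of 9 end-joining genes lig4 (0.92), xrcc6 (0.41) and prkdc (0.40) were higher in insulin and 0 lower, with adjusted p from 0.00419 to 0.0464 (edgeR).

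The lists in which most of the called genes were lower in insulin at 4 hpi were those of recombination and of p53. Of 25 homologous recombination and Fanconi genes 5 were lower in insulin and 1 higher (20% and 4%, median -0.17). Over all genes 14.6% were lower, near the share in this list, and 14% higher. brca2 (-0.74), fancg (-0.73) and slx4 (-0.66) were lower and fance higher (0.92), with adjusted p from 0.000968 to 0.00868 (edgeR). Of 24 p53 targets and checkpoint genes 10 were lower in insulin and 3 higher (41.7% and 12.5%, median -0.31). plk3 (-0.77), the apoptosis gene bbc3 (-1.21), gadd45bb (-1.71) and the cell cycle inhibitor gene cdkn1a (-0.99) had the smallest p, with adjusted p from 1.54e-05 to 0.000421 (edgeR). The summed level of the 24 was 1217 to 1296 CPM in PBS and 1515, 1109, 1064 and 1115 CPM in insulin replicates 1 to 4. Insulin replicate 1, which stands apart, thus lay above all PBS libraries.

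**Figure D4:**
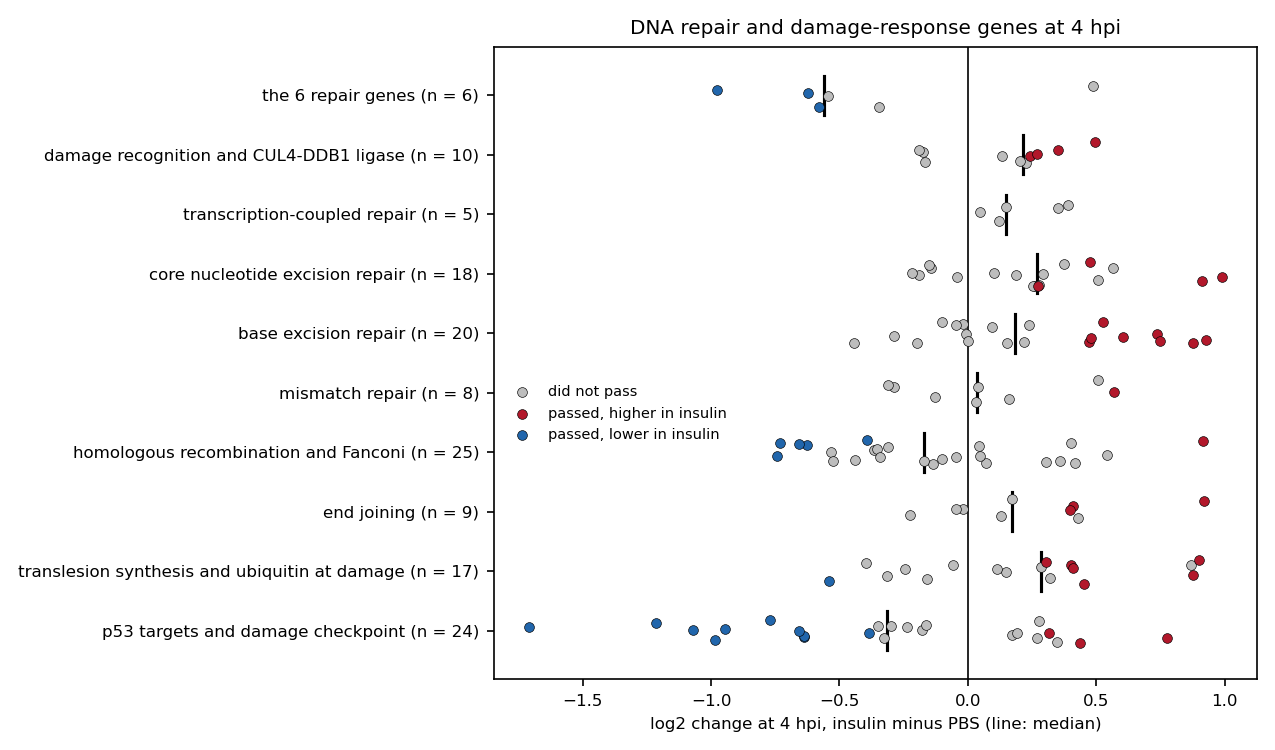
Log2 change at 4 hpi, insulin minus PBS, of the 6 repair genes and of each gene of the 9 other repair and damage-response lists, with the list median as a line and colour for genes that passed. The median of the 6 lies at -0.56, and those of the other lists between -0.31 and 0.28.

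Most markers of dividing cells were higher in insulin at 4 hpi, where wdr76, ercc6 and zufsp were lower and neil1 had a higher mean. The summed level of 14 such genes was 744 to 814 CPM in PBS and 893 to 1210 CPM in insulin at 4 hpi. Of these genes 10 were higher and 1 lower (edgeR, adjusted p under 0.05), against 14% and 14.6% of all genes. At 0.5 hpi their summed level was 866 to 1350 CPM in PBS and 1115 to 1254 CPM in insulin, with changes of -0.11 to 0.49 that did not pass. The 22 tissue markers had changes of -0.45 to 1.76 at 4 hpi that did not pass, and their summed level was 13698 to 15205 CPM in PBS and 15981 to 21152 CPM in insulin. None of these markers was at 0 in any library, and their part in the result was not tested.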

How the data were processed

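The deposited values were whole-number read counts per gene, 1 table per library, for 31452 Ensembl genes; 31181 had a symbol. The authors processed the reads on the Zv9 build, per the submitters' processing notes. The sources used here do not name the aligner, counter, annotation release or strand setting. The last line of each table, a size factor, was not used. Per the labels, TRIzol extraction was followed by DNase I.

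With filterByExpr of edgeR 4.0.16 (R 4.3.3), 21650 genes were kept. TMM factors and 1 quasi-likelihood model (glmQLFit, robust) were fitted to all 16 libraries with 4 groups (12 residual degrees of freedom). Tests were two-sided, with p-values adjusted by Benjamini-Hochberg over the whole table; passing means an adjusted p under 0.05. Counting precision is given by the reads behind each value and covers counting error only. Likeness used log2 CPM with a prior count of 2 in genes of at least 2 CPM.

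The 6 genes, the 12 lists and the tests were chosen with earlier results of these data known. Of 193 list symbols 184 (95.3%) matched a gene, with older names from gene name tables; for a symbol with several rows the row with most reads was used. Named list genes were those with the smallest p that passed, up to 4 a list, and every light-responsive gene. One list result is not reported here. Alternatives were DESeq2 1.42.0 and limma 3.58.1 (voom), other scalings and filters, fewer libraries, a replicate block, a library-split term and each library left out. The model was tested on simulated data.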

Additional observations from a re-analysis of the deposited data

Results flagged for a closer look

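For 4 of the repair genes and 2 light-responsive genes every insulin library lay above every PBS library at 0.5 hpi and below every PBS library at 4 hpi. The log2 changes were 1.07 and -0.35 for xpc, 0.91 and -0.58 for ercc6, 1.57 and -0.98 for wdr76, 0.94 and -0.62 for zufsp, 1.15 and -1.46 for cry-dash, and 0.77 and -0.87 for tefa. Over all 21650 genes 119 (0.55%) had this pattern. That share is no measure for the repair genes, whose early direction was fixed by their choice. In 693 genes every insulin library lay above every PBS library at 0.5 hpi, and the 119 are among these 693. At 4 hpi alone every insulin library lay below every PBS library in 17.2% of all genes tested. The early direction of the repair genes was the reason for their choice, and the difference between the times was not tested.

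Single libraries lay far from the other 3 of their group in 5 of 64 groups examined, where chance gives about 1 in 20. ercc6 was at 23.8 CPM in PBS replicate 3 at 0.5 hpi, against 20.4 to 20.7 CPM, and at 19.5 CPM in insulin replicate 1 at 4 hpi, against 26.3 to 26.5 CPM. cry5 was at 10.02 CPM in PBS replicate 1 at 0.5 hpi, against 6.72 to 7.20 CPM. cpdp was at 24.6 CPM in insulin replicate 1 at 0.5 hpi, against 27.2 to 27.5 CPM, and at 56.2 CPM in insulin replicate 1 at 4 hpi, against 34.2 to 35.7 CPM.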

How the results depend on the processing

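The median change of the 6 genes kept its sign in all 29 alternatives at 4 hpi (-0.65 to -0.41, the last in lane 5). At 0.5 hpi it was positive in all 28 alternatives (0.88 to 1.34). The genes were chosen on the 0.5 hpi values, so that early sign describes them and tests nothing. zufsp had no value with the 10 CPM filter. The number of the 6 that passed at 4 hpi was 3 to 5 without single libraries, where 20.7% to 33.1% of all genes passed. It was 6 without the 4 libraries that stand apart (35.2% of all genes passed there) and 6 in the groups compared alone (33.6%). Whether replicate numbers pair the libraries was not settled. Same-number correlations ran from -0.24 to 0.68, 10 of 24 of them over 0.1, and unlike numbers were not correlated beside them. With the replicate block ddb2 passed at 4 hpi (-0.56, adjusted p = 0.0339, edgeR), 4 of the 6 in all, where 30% of all genes passed.

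At 0.5 hpi 84 genes passed, and 480 by DESeq2's Wald test, 39 by limma voom, 140 with at least 10 CPM in 4 libraries, 2841 without the 4 libraries, 493 with a term for the split, 11 with the near-identical pair summed, and 10 to 987 without single libraries. None passed by edgeR in 2 fits, of the groups compared alone (2115 had an unadjusted p under 0.05) and with no lane (708 had). Of the other repair genes 1 passed, and 2 with library totals, without a filter, with the 10 CPM filter or with the block, 6 by the Wald test or with the split term, 24 without the 4 libraries, 0 with the pair summed, in the groups compared alone or with no lane, and 0 to 12 without single libraries.

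At 4 hpi 6193 genes passed (4519 to 7233 without single libraries), 2954 in lane 5 and 1 with no lane. Of the other repair genes 46 passed (32 to 51), 19 in lane 5 and 0 with no lane. With library totals the share of called genes that were higher was 71.6% in place of 42.9% at 0.5 hpi and 38.9% in place of 49.0% at 4 hpi. Over time in insulin, changes near 0 turned sign. neil1 was at -0.22 without the 4 libraries, -0.25 with no lane, and -0.083 to 0.16 without single libraries, negative without insulin replicate 1 at 0.5 hpi. ddb2 was at -0.25 to 0.074 without single libraries, positive without insulin replicates 3 and 4 at 0.5 hpi and 2 at 4 hpi. Over all 28 alternatives the lowest ddb2 value was -0.68. xpc ran from -0.69 to -0.0030. The causes were not tested.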

Other observations

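Among markers of dividing cells the mitotic genes ccnb1 (1.13), plk1 (0.93) and cdk1 (0.92) and the replication gene mcm6 (0.62) were higher in insulin at 4 hpi, with adjusted p from 3.61e-05 to 0.00357 (edgeR). rrm2, named after its value was seen, for a subunit of ribonucleotide reductase, was lower in insulin (-0.42, adjusted p = 0.0264, edgeR).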
